A study of Mus musculus with 9 samples.

Results

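Open chromatin that both construct lines shared, and that unmodified cells did not, was described in ATAC-seq peak lists of mouse E14 embryonic stem cells (TOT2N variant). The 9 libraries came from 3 lines, with 3 libraries each: unmodified cells (WT), cells with a stably integrated TetR construct, and cells with a stably integrated TetR-MYBTA construct. All 3 lines share the TOT2N background, and the 6 construct libraries are 2 lines of 3 libraries, not 6 replicates of 1 group. Peaks of all 9 lists that overlapped by at least 1 bp were merged into 116362 regions. A region counted as gained when it had a peak in at least 2 of 3 TetR and at least 2 of 3 TetR-MYBTA libraries and in 0 of 3 WT libraries. It counted as lost when it had a peak in at least 2 of 3 WT libraries and in 0 of the 6 construct libraries. This gave 1291 gained regions, 1.11% of all merged regions, and 2555 lost regions, 2.2% of all merged regions. The sources used here do not say whether the libraries of a line came from separate cultures or whether a line is 1 clone. The p-values below therefore rest on the spread of these libraries only, and that spread can be technical. The tests treat the 6 construct libraries as exchangeable, which 2 lines are not. An SD over these 6 libraries also holds the gap between the 2 lines. Each construct is carried by 1 line, so a construct and the history of its line cannot be told apart.

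In ATAC-seq the Tn5 transposase cuts and tags DNA that nucleosomes leave accessible, so peaks mark active promoters, enhancers and insulator sites. TetR is the bacterial tetracycline repressor, a protein that binds tet operator DNA, and it is often used to bring a fused protein domain to a chosen site. MYB is a transcription factor of blood progenitor cells, and the series as titled concerns MYB activity and enhancer contacts; the labels do not say which part of MYB the construct holds. Naive mouse embryonic stem cells are known for wide open chromatin, CpG-rich promoters that stay accessible in most cell types, and Hox clusters held by Polycomb proteins.

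Promoter windows were overlapped by 5.81% of gained and 5.52% of lost regions, against 9.78% of all merged regions. The 6 promoters printed here are among those where no library of the absent side had a peak within 1 kb. Other promoters met this too and are not printed. They were chosen after the values were seen. The sequences are the 250 bases upstream of the annotated start from RefSeq on GRCm38.p6, whose chromosome coordinates are those of mm10, written 5′ to 3′ on the strand of the gene. Capitals mark the GC box (GGGCGG), the CCAAT box (CCAAT) and the MYB core (AACTG), each searched on both strands. The first 3 promoters overlapped a gained region, and the last 3 a lost region. Gm32059 (chr7:16045947-16046196, plus strand) is a long noncoding RNA gene inside Bicra, Gm35925 (chr13:7175751-7176000, minus strand) is a long noncoding RNA gene far from coding genes, and Nr4a3 (chr4:48045055-48045304, plus strand) encodes an orphan nuclear receptor. Mok (chr12:110840940-110841189, minus strand) encodes a MAP kinase-like kinase, Cldn7 (chr11:69965171-69965420, plus strand) a tight junction claudin, and Tincr (chr17:56554388-56554637, minus strand) is annotated as a noncoding RNA gene.
Gm32059: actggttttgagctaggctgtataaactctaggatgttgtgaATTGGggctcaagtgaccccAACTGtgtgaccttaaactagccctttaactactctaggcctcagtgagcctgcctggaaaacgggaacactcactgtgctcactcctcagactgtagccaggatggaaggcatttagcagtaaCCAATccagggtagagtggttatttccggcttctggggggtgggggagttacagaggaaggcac
Gm35925: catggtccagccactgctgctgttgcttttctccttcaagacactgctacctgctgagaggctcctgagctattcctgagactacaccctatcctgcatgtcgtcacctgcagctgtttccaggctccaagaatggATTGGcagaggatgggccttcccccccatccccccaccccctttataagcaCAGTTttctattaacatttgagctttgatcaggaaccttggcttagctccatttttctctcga
Nr4a3: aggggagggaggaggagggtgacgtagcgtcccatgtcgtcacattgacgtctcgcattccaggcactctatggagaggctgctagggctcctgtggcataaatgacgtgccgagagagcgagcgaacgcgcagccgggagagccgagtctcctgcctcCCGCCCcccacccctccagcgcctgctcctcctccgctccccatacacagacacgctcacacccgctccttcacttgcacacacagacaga
Mok: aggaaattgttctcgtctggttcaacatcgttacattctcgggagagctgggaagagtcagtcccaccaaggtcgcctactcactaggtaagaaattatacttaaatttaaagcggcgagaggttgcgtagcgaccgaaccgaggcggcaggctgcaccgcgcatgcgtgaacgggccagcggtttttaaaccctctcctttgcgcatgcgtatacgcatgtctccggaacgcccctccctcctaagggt
Cldn7: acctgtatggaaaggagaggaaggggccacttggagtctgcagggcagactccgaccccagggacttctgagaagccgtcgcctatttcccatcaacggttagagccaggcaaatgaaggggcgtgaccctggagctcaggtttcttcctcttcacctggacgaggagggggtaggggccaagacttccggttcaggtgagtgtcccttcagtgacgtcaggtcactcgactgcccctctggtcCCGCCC
Tincr: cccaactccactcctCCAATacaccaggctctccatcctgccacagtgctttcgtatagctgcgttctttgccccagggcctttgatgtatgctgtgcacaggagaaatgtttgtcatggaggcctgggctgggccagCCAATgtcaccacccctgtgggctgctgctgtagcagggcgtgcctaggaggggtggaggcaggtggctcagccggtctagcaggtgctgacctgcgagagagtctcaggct

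These promoters were not of 1 kind. The Gm32059 and Gm35925 sequences had a GC content of 50.8% and 51.2% with 2 CG dinucleotides each, whereas Nr4a3 had 63.6% and 18. Among the lost ones, Mok had 54.0% and 21 CG dinucleotides, Cldn7 60% and 10, and Tincr 60% and 5. The MYB core stood once in Gm32059 and once in Gm35925 and not in the other 4 sequences. Only the letters AACTG were searched for MYB, so other forms of its site were not counted. Over the 300-base windows from 250 bases before to 50 after a start, 31 of the 91 windows that overlapped a gained region held the MYB core (34.1%), 53 of the 168 that overlapped a lost region did (31.5%), and so did 30.8% of windows over a region with a peak in all 9 libraries, 31.6% of those over any merged region and 39.1% of all 32851 windows. A GC box stood in 44.0% of gained and 56% of lost windows, against 64.6% of the 7899 windows over a region with a peak in all 9 libraries and 32.7% of all windows. The CCAAT box stood in 27.5% of gained, 25.6% of lost, 41.9% of constant and 33.8% of all windows. The median ratio of observed to expected CpG was 0.648 in gained, 0.62 in lost, 0.772 in constant and 0.373 in all windows. By the GC box and the CpG ratio, gained and lost promoters thus lay between promoters open in every library and promoters at large. Both lay below windows over any merged region, of which 60.0% held a GC box, with a median CpG ratio of 0.727. Of the 75 gained and 141 lost regions at promoter windows, only 34 and 72 had no absent-side peak within 1 kb. The shares above count all of them. A match is a description of the letters, not evidence of binding, and matches of different motifs may overlap.

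Each line also differed from the other 2. Under the same rule with the lines exchanged, 1257 regions lacked a peak only in TetR and 4282 only in TetR-MYBTA, against the 1291 that lacked one only in WT. In the other direction, 4900 regions were present only in TetR and 2647 only in TetR-MYBTA, against the 2555 present only in WT. With lists of equal length, which keep the first 45136 rows of each, WT had the fewest of both kinds: 1011 regions absent only in WT against 1691 for TetR and 2232 for TetR-MYBTA, and 2147 present only in WT against 2685 and 3698. With replicate 3 of TetR-MYBTA left out, whose list is shortest, 942 regions were absent only in WT against 997 for TetR and 5021 for TetR-MYBTA, and 2727 were present only in WT against 5164 and 1859. The order of the lines thus depended on the lists used: with whole lists WT had slightly more absent-only regions than TetR, and without that library more present-only regions than TetR-MYBTA. Against the same 3 WT libraries, the sets of each line alone, which contain the shared sets by construction, held 7835 present and 4894 absent in TetR and 5086 present and 8630 absent in TetR-MYBTA.

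**Figure D1:**
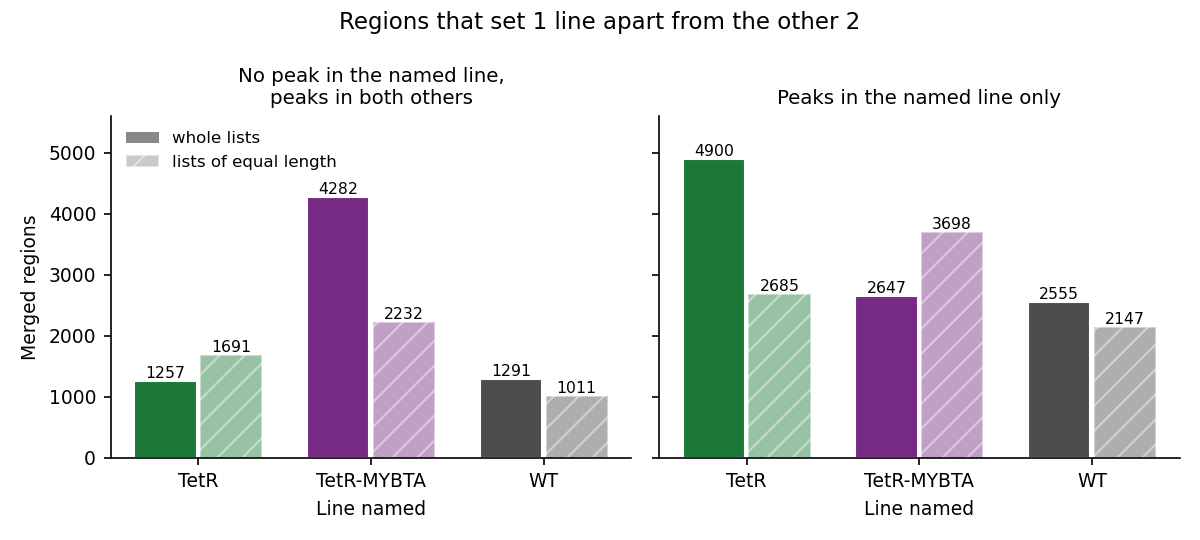
Number of merged regions (y axis) that lacked a peak in 1 line only (left) or had peaks in 1 line only (right), for each of the 3 lines on the x axis, with whole lists (solid bars) and lists of equal length (hatched). The WT bars are the gained regions (1291, and 1011 at equal length) and the lost regions (2555 and 2147), and at equal length both are the lowest of the 3 lines.

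Within the rule, the members differed in how many libraries carried them. Of the gained regions 176 had a peak in all 6 construct libraries, 579 in 5 and 536 in 4. Of the lost regions 665 had a peak in all 3 WT libraries and 1890 in 2. Just outside the rule stood 2463 regions that would have been gained but for a peak in 1 of 3 WT libraries and 2792 that had a peak in only 1 of 3 libraries of 1 construct line. Beside the lost set stood 2875 regions with a peak in 1 of 6 construct libraries and 8741 with a peak in only 1 of 3 WT libraries. A WT peak lay within 1 kb of 261 gained regions (20.2%), and a construct peak within 1 kb of 595 lost regions (23.3%). The median distance to the nearest peak of the absent side was 7.51 kb for gained and 5.13 kb for lost regions, and 9 gained regions had a lost region within 1 kb. Left with a peak in every library of the present side and no absent-side peak within 1 kb were 150 gained and 527 lost regions. When 1 library was left out the gained count ran from 586 (without TetR-MYBTA replicate 1) to 2344 (without WT replicate 2), and the lost count from 1137 (without WT replicate 2) to 3413 (without TetR replicate 1).

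Most members were weak peaks. A peak's place is its row in the list, written as a percentile with 100 for the first row, since the row order follows the order in which HOMER ranked the peaks. The median place of the gained regions was 32.2, 29.2 and 27.6 in TetR replicates 1 to 3 and 34.8, 32.8 and 27.4 in TetR-MYBTA replicates 1 to 3. For the lost regions it was 19.6, 22.3 and 20.5 in WT replicates 1 to 3. Lost regions thus stood lower in every WT list than gained regions did in any construct list, which compares ranks within lists of different length. The rule also asks for at least 4 libraries with a peak for a gained region and only 2 for a lost one, so the places of the 2 sets are not like for like. Few members reached the upper 10% of a list: 9 to 22 gained regions in a construct list and 3 to 6 lost regions in a WT list. The gained regions kept a loose order between the lines, with a Spearman rho of 0.364 between their mean places in TetR and in TetR-MYBTA across 1291 regions, against 0.761 across the 26020 regions with a peak in all 9 libraries. Regions are not independent replicates, and the rule narrows the range of places that gained regions can take.

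**Figure D2:**
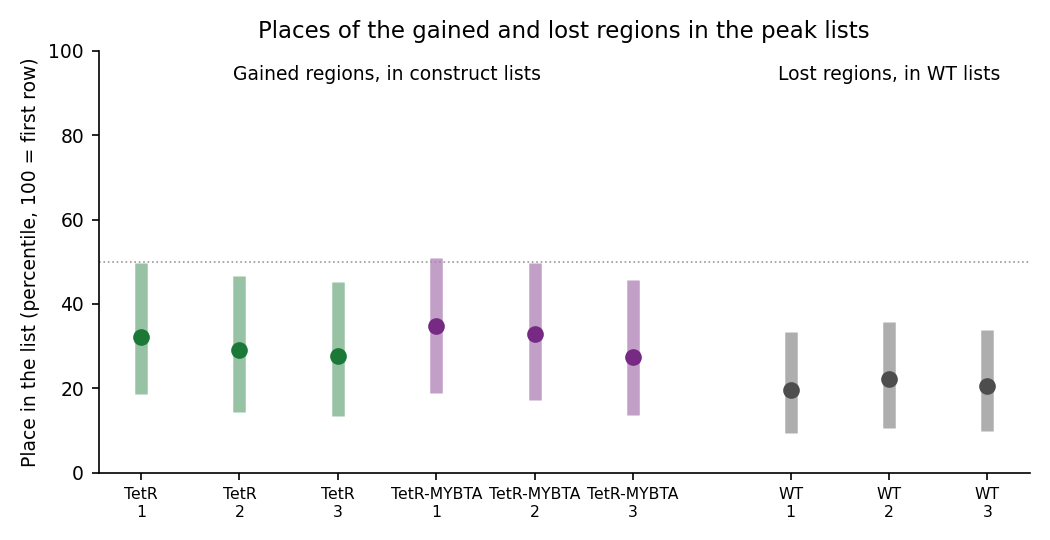
Place of the gained regions in the 6 construct lists and of the lost regions in the 3 WT lists (y axis, percentile of the row, 100 being the first row), with the libraries on the x axis. Points are medians and bars span the lower to the upper quartile; gained medians lie from 27.4 to 34.8 and lost medians from 19.6 to 22.3, all below the dotted line at 50.

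The leading gained regions, with a peak in all 6 construct libraries and no WT peak within 1 kb, lay mostly inside genes or far from them. The first was inside Igsf9, an immunoglobulin superfamily adhesion gene (chr1:172496101-172496332), with places of 79.8, 81.0 and 78.5 in TetR and 86.7, 74.6 and 73.9 in TetR-MYBTA. The nearest WT peak was 3.77 kb away. The next lay at an end of Bloc1s1, which encodes a subunit of a complex that builds lysosome-related organelles (chr10:128921010-128921433), with places of 82.9, 76.1 and 76.4 in TetR and 75.2, 73.3 and 75.9 in TetR-MYBTA. The lines overlapped at Igsf9, and at Bloc1s1 the TetR places stood just above those of TetR-MYBTA.

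Other leading gained regions were named by the nearest gene alone. A region inside Bicra, a subunit gene of a SWI/SNF remodelling complex (chr7:16046071-16046320), overlapped the Gm32059 promoter printed above and had places of 75.7, 64.9 and 67.2 in TetR and 74.6, 74.4 and 61.1 in TetR-MYBTA. One lay 3.7 kb from Bptf, which encodes the large subunit of the NURF remodeller (chr11:107135849-107136073), and one 7.21 kb from Phc1, a Polycomb gene (chr6:122347441-122347669). At Bptf the places were 45.3, 40.7 and 51.5 in TetR and 86.1, 74.1 and 80.7 in TetR-MYBTA, so TetR-MYBTA stood above TetR without overlap. So it did at Phc1, with 42.2, 54.6 and 40.4 in TetR and 59.6, 68.8 and 65.2 in TetR-MYBTA. The same held for Rapgef4, a gene of cAMP-activated Rap signalling, where the mean place over the 6 libraries was 57.9. It held also for Dsel, a dermatan sulfate epimerase-like gene 621 kb from its region (chr1:112486112-112486331), with 21.6, 45.7 and 52.5 in TetR and 81.1, 82.7 and 73.1 in TetR-MYBTA. The Dsel region lies in a stretch with many TetR-MYBTA peaks. From 112000001 to 114000000 of chromosome 1 the share of peaks was 1.01 times WT in TetR and 2.35 times WT in TetR-MYBTA.

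At 2 more of the 12 leading gained regions TetR stood above TetR-MYBTA without overlap. Inside Hunk, a kinase gene (chr16:90433655-90433905), the places were 82.4, 84.2 and 78.0 in TetR and 61.8, 72.1 and 64.5 in TetR-MYBTA. Inside the Rab regulator gene Dennd1c they were 56.7, 61.3 and 70.2 in TetR and 38.7, 52.9 and 53.5 in TetR-MYBTA. The lines overlapped at the remaining 3, which were 194 kb from Oxsm, a gene of mitochondrial fatty acid synthesis, 527 kb from the phosphofructokinase gene Pfkp and over the Gm35925 promoter, and inside the secretin receptor gene Sctr. Their mean places were 64.2, 60.1 and 56.6.

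The leading lost regions were also scattered. The first lay at the promoter shared by Mok and the noncoding gene 4921507G05Rik (chr12:110840831-110841039), with places of 86.4, 84.6 and 83.9 in the WT libraries and the nearest construct peak 3.19 kb away. Inside Smpd3, the gene of a neutral sphingomyelinase (chr8:106316738-106317077), the WT places were 77.9, 85.6 and 85.9. Inside Slc2a12, a glucose transporter gene (chr10:22698559-22698776), they were 81.9, 87.1 and 79.5, and no construct library had a peak within 11.7 kb. These 3 regions stood high in every WT list, unlike most lost regions. The next were 20.4 kb from Zwint, a kinetochore gene (mean place 73.8), 22.8 kb from the transporter gene Slc38a6 (73.1), and inside the nucleolar protein gene Knop1 (70.4), the zinc finger gene Zfp937 (69.3) and the RING finger gene Rnf39 (69.3).

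The highest-placed members at promoters and gene ends were of another kind: all 12 had a peak of the absent side within 0.3 kb. A gained region over the divergent promoter of Nup98, a nuclear pore gene, and Pgap2, a gene of GPI anchor remodelling, had places of 99.4, 99.4, 99.4 and 99.3 in 4 construct libraries, and a WT peak lay 0.052 kb away. The other 5 gained ones, near the aminopeptidase gene Lnpep, the kinase gene Ripk2, the zinc transporter gene Slc39a10, the anaphase-promoting complex gene Anapc15 and Pnisr, had mean places from 95.8 to 98.7. Lost ones at the membrane fusion gene Napa (98.3), D2hgdh (94.8), the mitochondrial protease gene Clpp (93.9), Swsap1 (92.0) and Cr1l (90.4) had a construct peak 0.034 to 0.289 kb away. At these sites both sides had peaks close by that did not overlap, and whether these were 1 shifted peak or 2 separate ones was not tested. Of the 75 gained and 141 lost regions that overlapped a promoter window, 34 and 72 had no absent-side peak within 1 kb.

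Gained regions lay farther from genes than lost regions did. Between genes lay 55.1% of gained and 45.7% of lost regions, and 45.3% of all merged regions. More than 100 kb from any protein-coding gene lay 24.6% of gained, 11.2% of lost and 15.7% of all regions. Inside genes were 34.2% of gained, 42.8% of lost and 38.3% of all. Within 1 kb of a gene end the 2 sets were alike, at 10.7% and 11.5%, below the 16.4% of all regions and the 30.5% of regions with a peak in all 9. A high share between genes was also seen in regions absent only from TetR (59.7%) and in those present only in TetR-MYBTA (67.2%). Members were also low in the lists and present in few libraries, and the part of this in the shares was not tested.

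The same division appeared along the chromosomes. The genome was divided into 2-Mb windows, and the 1264 with at least 90 peaks over all libraries were ordered by their number of protein-coding genes. In windows with 0 to 6 genes, 393 of 23557 merged regions were gained (1.67%) and 341 lost (1.45%). With 7 to 12 genes the shares were 1.21% gained and 1.86% lost, and with 13 to 21 genes 0.893% and 2.26%. In windows with 22 to 117 genes 321 of 37864 regions were gained (0.848%) and 1082 lost (2.86%). The gained share therefore decreased and the lost share increased at each step in gene number; windows and regions are not replicates, and no test is given.

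Peak shares of whole windows, which count all peaks and not only the members, moved the same way. The members' own peaks are among those counted, so part of this likeness is built in by the rule. Shares without the members are not given here. The share of a library's peaks was higher in all 6 construct libraries than in all 3 WT libraries in 92 windows (7.28% of 1264) and lower in 114 (9.02%). No window passed two-sided exact permutation tests with Benjamini-Hochberg adjustment over windows (smallest adjusted p = 0.174), while 269 had an unadjusted p under 0.05. Higher windows had a median of 6 protein-coding genes and lower ones 24, against 12 in all windows. In the gene-poorest windows (0 to 6 genes) 13.1% were higher and 1.91% lower, and in the gene-richest (22 to 117 genes) 3.16% were higher and 19.6% lower. With lists of equal length the split of windows was 58 higher and 115 lower. Leaving chromosomes 1, 11, X and Y out of each library's total gave 16.1% higher and 1.34% lower among the gene-poorest windows and 4.98% and 21.1% among the gene-richest.

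The 2 lines were then set against WT 1 at a time, sharing the WT libraries. In TetR 19.4% of gene-poorest windows were above all WT libraries and 9.02% below, and of the gene-richest 10.8% were above and 27.8% below. In TetR-MYBTA the corresponding shares were 64.5% and 10.1%, and 18% and 50.3%. From the fewest to the most genes, the share above WT went 19.4, 19.9, 14.3 and 10.8% in TetR, with no decrease at the first step, and 64.5, 36.1, 19.6 and 18% in TetR-MYBTA. The share below WT went 9.02, 10.5, 14.3 and 27.8% in TetR and 10.1, 24.7, 47.2 and 50.3% in TetR-MYBTA. Together these classes cover all 1264 windows. Sets of 3 against 3 libraries separate by chance more often than 6 against 3, so these shares are not like those of both lines together. The difference between the lines was not tested.

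**Figure D3:**
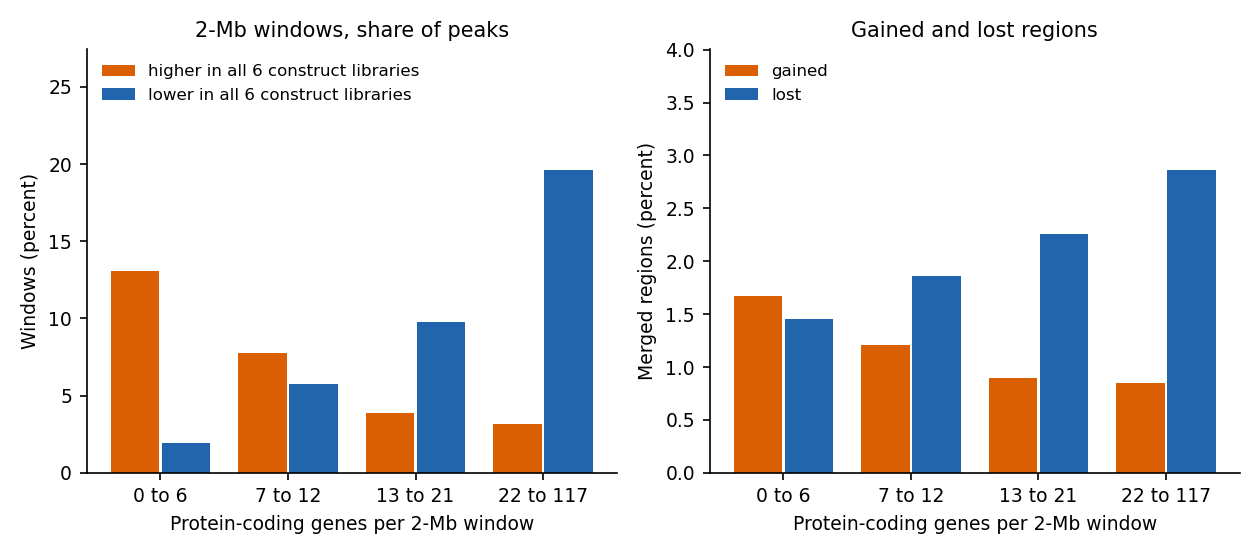
Left, percent of 2-Mb windows (y axis) whose share of peaks was higher (orange) or lower (blue) in all 6 construct libraries than in all 3 WT libraries, by the number of protein-coding genes in the window (x axis). Right, percent of merged regions in those windows that were gained (orange) or lost (blue). Lower windows go from 1.91% to 19.6% and lost regions from 1.45% to 2.86% from the fewest to the most genes, while gained regions go from 1.67% to 0.848%.

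Measured per library, peaks in the gene-richest windows made up 33.31, 33.75 and 33.82% of peaks in TetR, 31.40, 31.15 and 32.31% in TetR-MYBTA, and 35.38, 34.64 and 35.16% in WT. All 6 construct libraries lay below all 3 WT libraries, at 32.62 ± 1.18% (SD, n = 6) against 35.06 ± 0.384% (SD, n = 3; two-sided exact permutation p = 0.0238, adjusted p = 0.0429 over 9 measures). In windows with 7 to 12 genes they lay above, at 22.82 ± 0.199% against 22.21 ± 0.0415% (exact permutation p = 0.0119, adjusted p = 0.0357). In the gene-poorest windows the groups overlapped, at 20.14 ± 2.36% against 17.42 ± 0.311% (exact permutation p = 0.0595, adjusted p = 0.0893), with TetR at 18.03 ± 0.373% and TetR-MYBTA at 22.25 ± 0.611% (SD, n = 3 each). Window shares include the members' own peaks, which the rule chose by their presence, so their p-values are not independent of the rule. These 9 measures were added after the data were seen. None of the 5 that passed did so when any 1 of the 9 libraries was left out, although each kept its direction and its difference stayed within 1.5 times.

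Single windows showed which stretches both lines shared. The window of chromosome 16 from 66000001 to 68000000, which holds Cadm2, a synaptic adhesion gene, had 39, 30 and 30 peaks in TetR, 35, 33 and 18 in TetR-MYBTA, and 16, 20 and 15 in WT. As a share of peaks this was 1.79 times WT in TetR and 1.84 times WT in TetR-MYBTA. It held 4 gained regions of 66 merged ones (6.06%), which lack WT peaks by the rule. The window was also chosen after its values were seen, so no test of it is given. The window with the highest ratio, 168000001 to 170000000 of X, rested mainly on TetR, with 100, 97 and 100 peaks against 30, 30 and 22 in TetR-MYBTA and 27, 24 and 26 in WT. Most gained regions in a window were the 8 of 109 merged regions (7.34%) around Pla2g4a, a phospholipase gene (chromosome 1, 148000001 to 150000000), with 31, 30 and 22 peaks in TetR, 68, 66 and 41 in TetR-MYBTA and 17, 20 and 24 in WT. Its groups overlapped through TetR replicate 3, so it was not among the 92.

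The windows with the most lost regions lay on chromosomes 4 and 5. The window of chromosome 4 from 134000001 to 136000000, with 49 protein-coding genes including the pluripotency-associated RNA-binding protein gene Lin28a, held 17 lost regions of 171 merged ones (9.94%), the most of any window, and 2 gained ones. It had 78, 76 and 72 peaks in TetR, 60, 63 and 47 in TetR-MYBTA and 91, 94 and 99 in WT, a share of 0.733 and 0.663 times WT. The window of chromosome 5 from 112000001 to 114000000, which holds crystallin genes such as Cryba4, had 56, 65 and 49 peaks in TetR, 41, 41 and 37 in TetR-MYBTA and 77, 81 and 82 in WT, a share of 0.651 and 0.554 times WT, with 11 lost (8.33% of 132) and 0 gained regions. Between them came 14 lost regions (9.27% of 151) in the window from 114000001 to 116000000 of chromosome 5 and 12 in each of the windows of chromosome 4 from 140000001 (7.59% of 158) and from 150000001 (9.30% of 129). These windows were chosen by their lost regions, which lack construct peaks by the rule, so their lower construct shares are a description and no test is given.

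Whole chromosomes differed in smaller steps, in shares that also include the members' own peaks. On chromosome 4 the share of peaks was 5.844, 5.877 and 5.810% in TetR, 5.868, 5.851 and 5.765% in TetR-MYBTA, and 6.195, 6.279 and 6.254% in WT. The construct lines did not differ there by more than their spread and both lay below WT, at 5.836 ± 0.0418% (SD, n = 6) against 6.243 ± 0.0433% (SD, n = 3; exact permutation p = 0.0119, adjusted p = 0.05 over 21 chromosomes). On chromosome 7 the shares were 5.746 ± 0.147% and 6.245 ± 0.0635%, and on chromosome 13 they were 4.497 ± 0.0476% and 4.686 ± 0.0369%. Higher in the construct libraries were chromosome 3, at 6.248 ± 0.132% against 5.901 ± 0.0263%, and chromosome 14, at 4.055 ± 0.0696% against 3.898 ± 0.0257% (SD, n = 6 and n = 3; exact permutation, adjusted p = 0.05 each).

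Passing was set at an adjusted p of 0.05 or less, and these 2 higher (9.52% of 21) and 3 lower (14.3%) chromosomes stood exactly on it at the smallest p the design allows. None passed without any 1 library, where the smallest possible p is 0.0179 or 0.0357, with lists of equal length (smallest adjusted p = 0.0714 by the exact permutation test) or in the upper 50% of each list (0.0625). The direction held in all of these, but on chromosome 14 the difference was 0.157 points with whole lists and 0.0727 with lists of equal length. With chromosomes 1, 11, X and Y left out of the total, chromosomes 2, 5 and 9 joined as lower, and chromosome 13 no longer passed (exact permutation, adjusted p = 0.529). That total gave 5 higher and 5 lower chromosomes. Chromosomes 1 and 11 held 10.15% and 7.341% of TetR-MYBTA peaks against 7.629% and 5.903% in WT, and X held 3.711% of TetR peaks against 2.743%, so the shares of the other chromosomes move with lines that differ there.

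**Figure D4:**
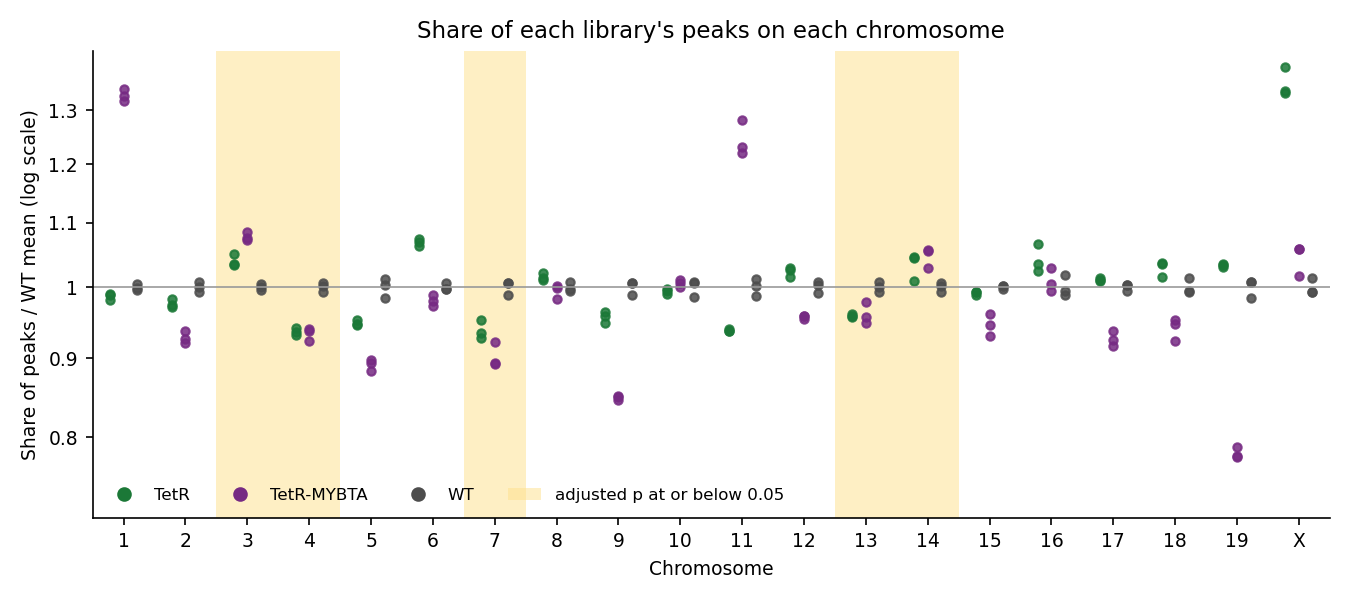
Share of each library's peaks on each chromosome (x axis, Y left out), divided by the WT mean (y axis, log scale), with 1 point per library for TetR (green), TetR-MYBTA (purple) and WT (grey). Shaded chromosomes had an adjusted p at or below 0.05 for the 6 construct against the 3 WT libraries; on chromosome 4 both construct lines lie together below WT.

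The members were not spread evenly over the chromosomes. Of all merged regions 1.11% were gained and 2.2% lost. On chromosomes 3 and 14, which had higher peak shares, 1.25% each were gained and 1.74% and 1.69% lost. On 4, 7 and 13, which had lower ones, 0.914, 0.747 and 0.842% were gained and 2.89, 2.76 and 2.14% lost. The lost share of chromosome 13 was thus just below that of all regions. On chromosome 11, 1.34% were gained, where TetR had 0.938 and TetR-MYBTA 1.24 times the WT share of peaks. Chromosome 1 held 167 gained regions, 12.9% of them, where 8.66% of all merged regions lay, and X held 64, or 4.96% against 3.23%. Chromosomes 5 and 9 held 215 and 180 lost regions, 8.41% and 7.05% of them, where 5.93% and 4.80% of all regions lay. Chromosome X held 33 lost regions, 1.29% of them. The share of all peaks on chromosome 1 was 0.986 times WT in TetR and 1.33 times WT in TetR-MYBTA, and on X 1.35 and 1.04 times; their part in the members' counts was not tested. Without X and Y 1227 gained and 2522 lost regions remained.

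The regions open in every library also changed in order. For the 26020 regions with a peak in all 9 lists, which the rule on members did not use, the place was taken among these regions alone, so that every list ranked the same set. Those within 1 kb of a gene end had a mean place of 60.49, 60.63 and 59.69 in TetR, 58.12, 56.95 and 58.35 in TetR-MYBTA, and 64.20, 64.11 and 65.05 in WT. All 6 construct libraries lay below WT, at 59.04 ± 1.47 (SD, n = 6) against 64.45 ± 0.516 (SD, n = 3; exact permutation p = 0.0119, adjusted p = 0.0357 over the 9 added measures). Regions between genes lay higher, at 46.47 ± 2.11 against 43.04 ± 0.163 (exact permutation p = 0.0238, adjusted p = 0.0429), with TetR at 44.57 ± 0.299 and TetR-MYBTA at 48.37 ± 0.481. Inside genes the means were 45.50 ± 1.34 and 44.48 ± 0.307 (exact permutation p = 0.405). Places are relative, so a lower place of 1 class goes with a higher place of another.

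Counted by region, 1695 of the 26020 (6.51%) stood higher in all 6 construct libraries than in all 3 WT libraries and 2516 (9.67%) lower. At gene ends these were 3.05% and 17.8% of 7926 regions, inside genes 6.4% and 7.38% of 7912, and between genes 9.30% and 5.14% of 10182. Single regions with the widest gap included one inside Gpc6, a glypican gene, with a mean place of 77.0 in construct and 25.7 in WT libraries. One 22 kb from Mmp7, a matrix metalloproteinase gene, had places of 1.83, 3.41 and 5.15 in TetR, 10.4, 0.761 and 3.99 in TetR-MYBTA, and 77.3, 69.2 and 81.6 in WT. Others lower in both construct lines lay near the apoptosis gene Bcl2l11 (20.5 against 80.3), the adhesion receptor gene Adgrb1 (17.4 against 71.9) and inside the glycosyltransferase gene A4galt (12.4 against 70.8). Others higher lay inside Duox1, an oxidase gene (88.4 against 48.7), and 35.2 kb from Trio (61.2 against 8.93). These regions were chosen by their gap, so no test of them is given.

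**Figure D5:**
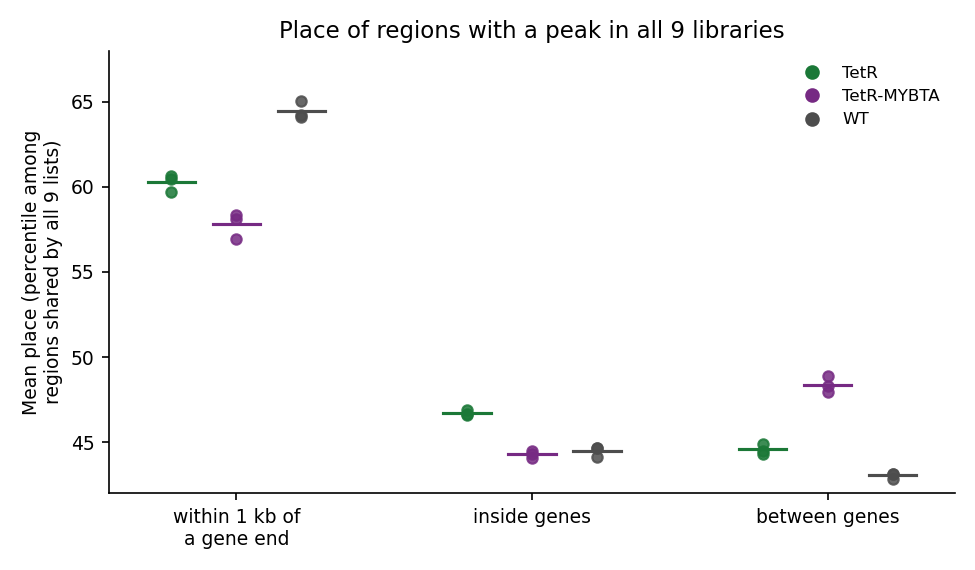
Mean place of the 26020 regions with a peak in all 9 libraries (y axis, percentile among these regions, axis from 42 to 68), by position relative to protein-coding genes (x axis). Points are libraries and lines are means of TetR, TetR-MYBTA and WT; at gene ends all 6 construct libraries lie below the WT libraries, from 56.95 to 60.63 against 64.11 to 65.05.

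Constant regions near the members were also described. Within 50 kb of a gained region, 8.80% of 1966 constant regions stood higher in all construct libraries and 6.61% lower. Within 50 kb of a lost region, 3.98% of 3589 stood higher and 14.5% lower. Within 10 kb of a lost region the shares were 4.92% and 12.1% of 792. Within 10 kb of a gained region they were 7.01% and 9.55% of 471, close to those of all constant regions.

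Taken as 1 group, the construct libraries did not separate from the WT libraries in the library measures. Peak number was 59450 ± 8610 (SD, n = 6) against 59760 ± 3250 (SD, n = 3; exact permutation p = 0.964), and tags in peaks made up 8.214 ± 1.70% against 7.904 ± 0.160% of total tags (exact permutation p = 0.857). For tags in peaks the lines lay on opposite sides of WT, at 9.598 ± 0.26% in TetR and 6.831 ± 1.17% in TetR-MYBTA (SD, n = 3 each). So did peaks inside genes, at 37.92% in TetR, 32.99% in TetR-MYBTA and 36.40% in WT. A pooled mean near WT therefore does not show that each line was like WT. None of the 6 measures passed the exact permutation test (0.0% in either direction, adjusted p = 0.964 each), and 0 of the 6 had an unadjusted p under 0.05. A value in the list headers did differ, the share of putative peaks that HOMER removed because they were less than 4-fold above the 10 kb around them. It was 13.13, 11.65 and 9.907% in TetR, 9.777, 10.42 and 8.652% in TetR-MYBTA, and 13.49, 15.55 and 14.28% in WT. All 6 construct libraries lay below WT (10.59 ± 1.58% against 14.44 ± 1.04%, exact permutation p = 0.0119, adjusted p = 0.0357 over the 9 added measures). Total tags were 18.69 ± 1.34 M against 21.19 ± 2.35 M (exact permutation p = 0.0833, adjusted p = 0.107) and overlapped. The filter and depth move with the same grouping as the gene-end places and gene-rich windows, and their part in those results was not tested.

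Gene lists were compared by the share of peaks within 50 kb of their genes, and 0 of 14 lists passed the exact permutation test after adjustment (0.0% in either direction), with 1 of 14 at an unadjusted p under 0.05. That one was the trophoblast list, genes of the placental lineage, at 0.1538, 0.1486 and 0.1481% of peaks in TetR, 0.1408, 0.1300 and 0.1152% in TetR-MYBTA, and 0.1607, 0.1838 and 0.1712% in WT. All 6 construct libraries lay below WT, with a ratio of means of 0.811 (exact permutation p = 0.0119, adjusted p = 0.167). Within 10 kb of the genes the difference in share went from -0.0325 to -0.0119 points (exact permutation p = 0.167, adjusted p = 0.778). Of 181 merged regions within 50 kb of these genes 7 were lost (3.87%) and 1 gained (0.552%), against 2.2% and 1.11% of all regions. Lost regions lay at the ends of 2 of 15 trophoblast genes, where 1.49% of all protein-coding genes had one. These were Plet1, with places of 17.7 and 8.85 in WT replicates 1 and 2, and Gcm1, with 16.0 and 25.4 in WT replicates 2 and 3. Both are low places, and at Gcm1 a construct peak lay 0.892 kb away.

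Lists can also be read by the genes with a member nearby, beside the 8.1% of 21883 protein-coding genes with a gained region and the 18.4% with a lost region within 50 kb. Of 22 naive and core pluripotency genes 3 had a gained region nearby (Klf5, Tfcp2l1 and Zfp42, 13.6%) and 6 a lost one (Klf5, Esrrb, Prdm14, Fgf4, Sall4 and Lin28a, 27.3%), and none had either at a gene end. By regions these were 3 gained (0.955%) and 8 lost (2.55%) of 314, near the 1.11% and 2.2% of all regions. Of 20 DNA methylation and heterochromatin genes 8 had a lost region within 50 kb (40%), among them the methyltransferase cofactor gene Dnmt3l, the demethylation enzyme gene Tet1 and the histone H3 lysine methyltransferase genes Setdb1, Ehmt1, Ehmt2 and Suv39h1. Setdb1 alone had a gained one (5.0%). By regions these were 9 lost (2.72%) and 1 gained (0.302%) of 331. The one at an end of Suv39h2 had places of 84.5 and 70.8 in WT replicates 2 and 3, with a construct peak 0.032 kb away. Of 23 blood progenitor and MYB-associated genes, 2 had a gained region nearby (Gfi1b and Ptprc, 8.70%) and 3 a lost one (Myb, Erg and Elane, 13.0%), near and below the background. A gained region lay within 1 kb of an end of 0.731% of all protein-coding genes and a lost region of 1.49%. Of the genes on the lists, Ddx58 alone had a gained region at its end. Ddx58 encodes the RNA sensor RIG-I, and the region had places of 24.0, 32.6 and 18.8 in TetR and 34.9, 48.1 and 35.7 in TetR-MYBTA and a WT peak 0.982 kb away.

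Hox genes, which pattern the body axis, had many genes near a few lost regions. Of 39 Hox genes 33 had a lost region within 50 kb (84.6%), yet because the clusters are dense these were 8 lost regions of 94 (8.51%), with 0 gained. Of all merged regions 2.2% were lost and 1.11% gained. The lost share was the highest of the 14 lists, before neural genes at 4.55%, but it rests on 8 regions and was not tested. Over Hoxb (chromosome 11, 96194316 to 96368254) peaks numbered 5, 3 and 2 in TetR, 4, 3 and 4 in TetR-MYBTA, and 8, 9 and 4 in WT, with 3 lost regions inside. WT replicate 3 overlapped the construct libraries. Over Hoxa, Hoxc and Hoxd the TetR means were 10, 8.67 and 10.7 and the WT means 9.0, 7.67 and 10.7, whereas the TetR-MYBTA means were 4.33, 2.0 and 2.33, so Hoxb was the cluster with low counts in both construct lines. The lost regions at gene ends of Hoxa5 and Hoxa6 (1 region), Hoxb2, Hoxb4 and Hoxd9 were present in 2 of 3 WT libraries at mean places of 31.1, 29.7, 15.7 and 11. The nearest construct peaks were 0.715, 0.973, 6.54 and 0.055 kb away.

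The labelled cell type was checked against its markers, by a peak within 1 kb of a gene end. Sox2, Tfcp2l1, Klf4 and Dppa5a, 4 of the 8 stem cell markers, had one in all 9 libraries. Pou5f1 had one in 2 libraries and Nanog in 4, and Esrrb and Zfp42 in none. Peaks lay within 50 kb of each of these genes in every library, however. At Pou5f1 they numbered 3 to 12 in construct and 5 to 9 in WT libraries, and at Nanog 8 to 13 and 8 to 10. At Esrrb they numbered 12 to 17 and 17 to 20, with 2 lost regions nearby. Zfp42 went the other way, with 2 to 5 in construct and 1 to 2 in WT libraries and 1 gained region nearby. So did Tfcp2l1, with 8 to 12 in construct libraries, 7 in each WT library and 1 gained region nearby. Myb had a gene-end peak in all 9 libraries and 2 lost regions within 50 kb. Of 8 fibroblast markers Twist1 had a peak in all 9 libraries, Col1a1 and Col1a2 in 8, Thy1 in 7, Prrx1 in 6, Pdgfrb and Twist2 in 1 and Col3a1 in none. Of 4 trophoblast markers Gata3 had one in all 9, Cdx2 in 8 and Elf5 and Hand1 in 1. Of 4 primitive endoderm markers Gata6 had one in 6, Sox7 in 2 and Gata4 and Sox17 in none. Several markers of other cell types thus had a gene-end peak in more libraries than Pou5f1 or Nanog. Open chromatin at a gene end is not expression, and the part of other cell types in the results was not tested.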

How the data were processed

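ATAC-seq libraries were grouped by their titles into WT, TetR and TetR-MYBTA, 3 of each. Per the submitters' processing notes, the tools, listed without roles, were HOMER 4.11, deepTools 3.5.5, Bowtie2, Picard, FastQC and Trim Galore 0.6.10, and the build was mm10. A Tn5 offset shift and blacklist removal are not given in the sources used here. Peaks were called in each library separately, without pooling or a control library, per the file headers, which set a threshold of 11 or 12 tags (false discovery rate 0.001), 1 tag per position as a maximum, and over the local 10 kb a 4-fold excess with a Poisson p-value of 0.0001. The score deposited by the authors is 1 in every row, so row order gave the place (rank correlation with HOMER's peak numbers at least 0.9898). Comparisons rest on presence or absence of peaks, since their tag counts were not used here, and no interval is given. Total tags ranged from 16.4 M to 23.0 M and lists from 45136 to 70230 peaks; a shorter list reaches less far down.

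Genes and promoter windows came from RefSeq tables on GRCm38.p6 (21883 protein-coding genes without strand or exons, and 32851 windows of 27025 genes), matched by symbol; all 298 genes of 14 lists matched. No genome sequence was used, so region sequences and tet operators were not analysed here. The 6 construct and 3 WT libraries were compared by a two-sided exact permutation test on means over 84 assignments, with Benjamini-Hochberg adjustment; 3 against 3 cannot go below 0.10. Members and lists were chosen with earlier results of these data known. Named regions were the 12 gained and 8 lost ones of highest mean place with peaks in every library of their side and no opposite peak within 1 kb, the 6 highest of each set at promoters or gene ends, list genes with a member at an end, passing chromosomes, and Pou5f1, Sox2, Nanog, Klf4, Esrrb and Myb; other genes, windows and the promoters printed were chosen after their values were seen. One named region is not reported here. The counting and the test were tested on simulated data. Alternatives tried were the upper 50% of lists, lists of equal length, other overlap rules, autosomes, other distances and windows, each library left out and a replicate block. Tools were scipy 1.17.1, numpy 2.4.6, matplotlib 3.10.9 and pandas 2.3.3 under Python 3.11.15.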

Additional observations from a re-analysis of the deposited data

Results flagged for a closer look

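In 10 measures all 3 TetR libraries lay on one side of all 3 WT libraries and all 3 TetR-MYBTA libraries on the other, so the construct lines did not share a direction there. The difference between the construct lines was not tested. As TetR minus TetR-MYBTA, it was 2.77 points for tags in peaks (means of 9.60% in TetR, 6.83% in TetR-MYBTA and 7.90% in WT) and 4.93 points for peaks inside genes (37.9, 33.0 and 36.4%). For shares of peaks by chromosome it was -2.62 points on chromosome 1, 0.5 on 6, -1.8 on 11, 0.268 on 12, 0.362 on 17, 0.283 on 18 and 0.61 on 19. For peaks within 50 kb of stem cell signalling genes it was 0.0667 points (0.314, 0.248 and 0.285%). No library stood apart from the other 5 construct libraries in any of the 49 groups of values examined for outlying libraries. Those 5 span both lines, so the check does not show that each library was like its own line. TetR-MYBTA replicate 3 had 5.476% of tags in peaks against 7.572 and 7.444% in replicates 1 and 2. Its list held 45136 peaks against 59675 and 56917.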

How the results depend on the processing

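In the upper 50% of each list there were 742 gained and 1406 lost regions, and with 3 of 3 libraries needed for presence 176 and 665. Leaving out 1 library gave 586 to 2344 gained and 1137 to 3413 lost regions. The gained count moved by over 1.5 times without TetR replicate 1 (673) or 2 (721), TetR-MYBTA replicate 1 (586) or 2 (625), and the lost count without WT replicate 1 (1486), 2 (1137) or 3 (1271), where presence needs both libraries left in a line. Without WT replicate 2 (2344) or 3 (2069) the gained count rose, where absence is asked of 2 libraries only. Equal list length, merging over 200 bp, absence within 1 kb and autosomes only gave 1011 to 1227 gained and 1960 to 2522 lost regions. The number of chromosomes that passed went from 5 to 0 with lists of equal length, to 0 in the upper 50%, to 0 without any 1 library, and to 10 with chromosomes 1, 11, X and Y left out of the total. The added measures that passed went from 5 to 0 without any 1 library, where fewer libraries raise the smallest p. Windows of 200 kb gave 772 that did not overlap, 267 higher and 505 lower of 11213, where the cause was not tested; leaving out 1 library gave 213 to 292 of the 2-Mb windows. With the replicate number as a block, 0 chromosomes (smallest adjusted p = 0.156, exact permutation) and 0 added measures (0.111) passed; the smallest possible p is then 0.037. Libraries of the same number did not deviate together (correlations from -0.0712 to 0.21 in 9 pairs, 2 of them over 0.1), so the numbers were not taken to pair them. The block changed no call on library measures or gene lists, and neither those counts of 0 nor any direction of a named chromosome changed under the settings run. Peaks near the threshold of 11 or 12 tags limit all counts of absence.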
